A study of Bos taurus with 15 samples.

Results

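Blood endothelial cells of the NB (newborn) bovine gut were selected from 8 single-cell libraries, 1 each of rectum, colon, cecum, ileum, jejunum, duodenum, abomasum and reticulum. The selection rested on measured transcripts. A barcode was kept when it held 500 to 4000 detected genes and under 50000 UMIs (unique molecular identifiers, 1 for each captured transcript). It was selected when it held at least 1 UMI of *CLDN5*, an endothelial tight-junction gene, and at least 1 of *EGFL7*, a secreted endothelial protein. It also had to hold 0 UMIs of *PROX1*, the lymphatic regulator, of *PTPRC*, the pan-leukocyte gene, and of *EPCAM*, the epithelial surface marker. These limits gave 6075 cells among 65497 kept barcodes of the 8 libraries (9.28%), out of 172405 barcodes in the whole series.

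The study surveyed the digestive system of Holstein cattle with the 10x Genomics 3' v3 chemistry at the newborn and the adult (AD) stage. All 8 libraries used here came from untreated newborn animals with no genetic change. Each tissue was represented by 1 library, and NB tissues were taken from 3 calves. The labels and the main text of the paper do not state which calf gave which library, and the supplementary animal information was not available here. Muscle layers were stripped before dissociation. Duodenum, jejunum, ileum, cecum, colon and rectum were treated with EDTA and trypsin and then with a lamina propria dissociation kit. Reticulum and abomasum were treated with EDTA and trypsin and then with collagenases, hyaluronidase, dispase and DNase I, so that tissue and enzymes cannot be told apart between stomach and intestine. P-values therefore measured the spread between tissues of a segment and not between animals.

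Blood endothelial cells line every vessel, form the barrier between plasma and tissue, and carry the adhesion molecules on which leukocytes leave the blood. In the gut, fenestrated capillaries lie under the epithelium and take up absorbed nutrients, while venules receive circulating lymphocytes through the mucosal addressin MADCAM1. Arterial, capillary and venous cells express different genes, and endothelial cells also differ from organ to organ.

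The reticulum contributed 216 cells, the abomasum 853, the duodenum 971, the jejunum 2394, the ileum 351, the cecum 541, the colon 108 and the rectum 641. The colon therefore gave the least precise values of the intestine. The cells held 34898375 UMIs in all, of library totals between 62529511 and 125527022. Median UMIs per cell lay between 3732 and 6489 by library, median detected genes between 1437 and 2212, and median mitochondrial UMIs between 2.53% and 5.01%. Pairs of libraries had 20 to 84 barcode sequences in common among all their barcodes, kept or not. Levels are given below in CPM, the UMIs of a gene per 1000000 UMIs summed over the selected cells of a library. Intervals are 95% exact Poisson or binomial intervals and cover counting error only.

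RNA of other cells reached these droplets, as it does in droplet libraries. In the abomasum the selected cells held 16360 CPM of chymosin (*CYM*), the milk-clotting enzyme of gastric chief cells, where the other barcodes held 203711 CPM. In the reticulum they held 569 CPM of the basal keratin *KRT5*, where the other barcodes held 6286 CPM. Of the 561 *KRT5* UMIs, 148 lay in 1 cell and 49.9% in 5 cells, and 152 of the 216 cells held at least 1. *KRT14* was likewise at 268 CPM in the selected reticulum cells. The level in the other kept barcodes of the same library is therefore given beside genes for which it matters, and a gene far below that level is not read as expressed by endothelial cells.

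At the edge of the selection, 111 cells held exactly 1 UMI each of *CLDN5* and *EGFL7*. Their *PLVAP*, a fenestral diaphragm protein of blood capillaries, lay between 35.4 and 3597 CPM by library. Just outside, 1674 barcodes held 1 UMI of either gene and 0 of the other, with *PLVAP* between 150.5 and 1189 CPM. A further 3781 barcodes held at least 2 UMIs of either gene and 0 of the other, with *PLVAP* between 1746 and 6997 CPM, so many barcodes with a blood endothelial transcript profile lay outside the limits. The upper gene limit left out 357 barcodes that met the other conditions, 146 of them in the rectum.

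Endothelial genes that the selection did not use were high in these cells, but the word "blood" did not hold for every cell. *PLVAP* stood at 1396 CPM in the reticulum, 3753 in the abomasum, 3194 in the duodenum, 3592 in the jejunum, 3133 in the ileum, 2486 in the cecum, 3204 in the colon and 3010 in the rectum. The other barcodes held 16.5 to 547 CPM. *PLVAP* was thus lowest in the reticulum and above the other barcodes in each of the 8 libraries. *CDH5*, the endothelial cadherin, varied little, from 397 CPM in the reticulum to 483 CPM in the duodenum, and *PECAM1* lay between 499 CPM in the cecum and 911 CPM in the reticulum. *VWF*, the platelet-binding clotting protein, ranged from 442 CPM in the reticulum to 1673 CPM in the cecum. *KDR*, the main VEGF receptor, ranged from 233 CPM in the reticulum to 722 CPM in the duodenum.

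Lymphatic transcripts were present in a minority of the selected cells although *PROX1* was not detected in them. *CCL21*, the chemokine of lymphatic endothelium, reached 136 CPM in the reticulum, 2335 in the abomasum, 652 in the duodenum, 956 in the jejunum, 1814 in the ileum, 1671 in the cecum, 428 in the colon and 1315 in the rectum. Of the selected cells, 716 (11.8%) held at least 3 UMIs of *CCL21* and at least 1 of *MMRN1*, a lymphatic multimerin, a limit chosen after the values were seen. They made up 0.463% of the reticulum cells and 9.47% to 18.4% of the cells of the other tissues, and they held 97.7% to 100% of the *CCL21* UMIs. Among cells with *MMRN1*, 33.5% had a *PLVAP* UMI, against 96.4% of cells without it. By the same limit, 713 of 835 *PROX1*-positive cells selected by the same other conditions (85.4%) held both genes. The selected set therefore held both cells of blood endothelial and cells of lymphatic profile, and the levels of *FLT4*, *MMRN1*, *LYVE1*, *HOXA7*, *HOXA9* and *MKI67* are given below also without them.

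**Figure D1:**
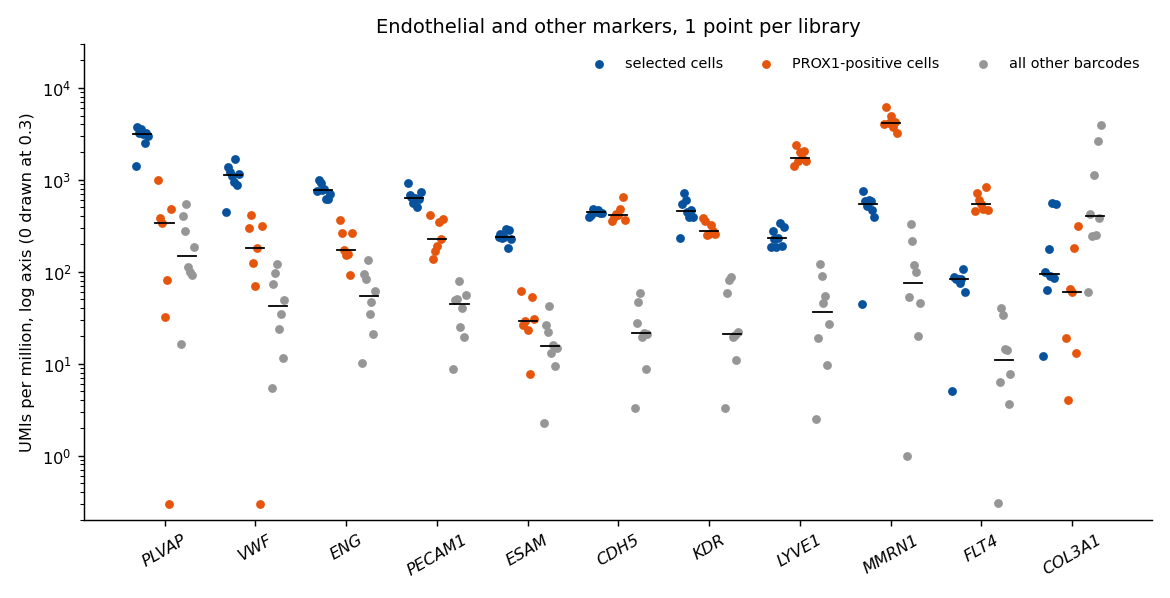
Levels of endothelial and other marker genes (CPM, log axis, with 0 drawn at 0.3) in the selected cells of the 8 libraries, in *PROX1*-positive cells of 7 libraries and in all other kept barcodes. Each point is 1 library and each bar the median; *PLVAP* was highest in the selected cells (1396 to 3753 CPM), and *LYVE1* and *MMRN1* were highest in the *PROX1*-positive cells (medians of 1736 and 4148 CPM).

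The selected cells differed from *PROX1*-positive cells of the same libraries in the direction that the selection fixed, so these values are a description. They cover 7 libraries, since the reticulum gave only 4 *PROX1*-positive cells. Median *PLVAP* was 3194 CPM in the selected cells and 341 CPM in the *PROX1*-positive cells. *FLT1*, the decoy VEGF receptor of blood vessels, stood at 223 against 10.2 CPM, and *RGCC*, a cell cycle regulator that marks capillaries, at 718 against 34.8 CPM. *MADCAM1* stood at 350 against 12.0 CPM and the fatty acid receptor *CD36* at 407 against 32.8 CPM. Each of these genes was higher in the selected cells in 7 of 7 libraries. *CDH5* was alike at 446 and 416 CPM. In the other direction, the lymphatic VEGF receptor *FLT4* stood at 82.6 against 545 CPM and the hyaluronan receptor *LYVE1* at 234 against 1736 CPM. *ANGPT2*, a Tie2 ligand, was at 70.2 against 284 CPM, again lower in the selected cells in 7 of 7 libraries.

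The share of kept barcodes that were selected was highest in the jejunum and lowest in the colon. It was 2.88% (2.51% to 3.28%) in the reticulum, 8.53% (7.99% to 9.09%) in the abomasum, 11.4% (10.8% to 12.1%) in the duodenum, 18.3% (17.6% to 18.9%) in the jejunum and 4.64% (4.18% to 5.14%) in the ileum. It was 8.46% (7.79% to 9.17%) in the cecum, 2.25% (1.85% to 2.71%) in the colon and 8.40% (7.79% to 9.05%) in the rectum. The intervals of abomasum, cecum and rectum overlapped. Barcodes with at least 2 UMIs of either *CLDN5* or *EGFL7* and 0 of the other were left out unevenly. They numbered 134, 901, 761, 1456, 181, 117, 67 and 164 from reticulum to rectum, more than the 853 selected cells in the abomasum. Median UMIs per selected cell were 4052 in the abomasum, 6489 in the cecum and 6060 in the rectum. The overlap therefore does not show equal shares of endothelial cells. The small intestine averaged 11.5% ± 6.81 (SD, n = 3 libraries) and the large intestine 6.37% ± 3.57 (SD, n = 3), a difference of -5.08 percentage points (exact two-sided permutation test, p = 0.4). With 3 libraries against 3, no such test can go below 0.1. With a library left out the difference ran from -8.49 to -1.67 points. A share of this kind follows the dissociation, the depth of the cells, the selection limits and the other cells of a tissue as well as its vessels. These cannot be told apart here.

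The selected cells of the reticulum stood apart from those of the other 7 tissues. Over 5563 genes with a mean of at least 20 CPM, the log2 levels of the reticulum cells had a Pearson correlation across genes of 0.844 to 0.871 with the other libraries. Pairs among the other 7 had correlations of 0.895 to 0.975, highest between duodenum and jejunum (0.975) and between cecum and rectum (0.970). The other barcodes of the reticulum stood apart as well, with correlations of 0.648 to 0.753 with those of the other libraries, against 0.754 to 0.977 among the rest. Genes are not independent replicates, and each point carries the depth and free RNA of its library. Among 2450 genes with at least 50 CPM in each of the other 7 libraries, 22 (0.898%) lay in the reticulum at or below 1 part in 4 of the lowest other library. In the colon 1 gene did so (0.0408%), the stress gene *IER3*, and in each of the other six tissues 0 genes did (0%).

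The lymphocyte ligand *MADCAM1* and the fatty acid genes *FABP5* and *CD36* were among those low in the reticulum cells. The leukocyte adhesion list as a whole was not low there, with a summed level of 2435 CPM against 2359 CPM in the abomasum and 2732 to 4816 CPM in the intestine. The lipid handling list summed to 628 CPM in the reticulum and 2122 to 6890 CPM elsewhere. *MADCAM1*, the ligand of the lymphocyte integrin that directs cells to the gut, was at 6.09 CPM in the reticulum, 202 in the abomasum, 283 in the duodenum, 350 in the jejunum, 441 in the ileum, 703 in the cecum, 229 in the colon and 891 in the rectum. The reticulum value rested on 6 UMIs in 216 cells, and the other 7 tissues lay between 202 and 891 CPM. *NKX2-3*, a homeobox factor of gut and splenic vessels on which *MADCAM1* expression depends in mice, was at 27.4 CPM in the reticulum. It lay between 128 CPM in the rectum and 185 CPM in the duodenum in the other 7 tissues. The chemokine receptor *CXCR4* was at 11.2 CPM against 54.1 to 206 CPM, although in ileum, cecum, colon and rectum the other barcodes exceeded the endothelial level. *FABP5*, a cytosolic fatty acid carrier, was at 213 CPM in the reticulum and between 1588 CPM in the rectum and 6111 CPM in the jejunum elsewhere. The other barcodes of the reticulum held 2024 CPM of *FABP5*, and the part of free RNA in the endothelial value was not tested. *CD36*, which takes up long-chain fatty acids, was at 77.1 CPM against 313 to 790 CPM.

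The antigen presentation genes *CD74*, *BOLA-DRA* and *B2M* were also lowest in the reticulum cells. *CD74*, the invariant chain of MHC class II, was at 160 CPM against 750 to 1416 CPM, and *BOLA-DRA*, a class II alpha chain, at 104 CPM against 436 to 1181 CPM. In the 6 intestinal libraries the other barcodes held 2123 to 7589 CPM of *BOLA-DRA*, more than the endothelial cells, and the part of free RNA in these levels was not tested. In the reticulum they held 13.4 CPM. *B2M*, the class I light chain, differed less, with 4729 CPM in the reticulum and 5844 to 9676 CPM elsewhere. Among further genes picked out after the values were seen, *PLAC8B* was at 4.06 CPM against 65.3 to 715 CPM. The lymphatic genes *FLT4*, at 5.07 CPM against 59.6 to 108 CPM, and *MMRN1*, at 44.6 CPM, were low in the tissue that had 1 cell of lymphatic profile. When the 716 cells with *CCL21* and *MMRN1* were left out of every library, 18 genes met the limit and 15 of them were among the 22. *FLT4*, then at 4.07 CPM against 6.94 to 24.8 CPM, and *MMRN1*, at 35.7 CPM against 14.6 to 132 CPM, no longer met it, while *MADCAM1* stood at 6.11 CPM against 241 to 1003 CPM.

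Most genes that were high in the reticulum cells were higher still in the barcodes around them. Among 3766 genes with at least 50 CPM in some library, 24 (0.637%) were at least 4 times as high there as in any other tissue, but 4 of these were also above the other barcodes of that library. *THBS4*, an extracellular thrombospondin, stood at 84.2 CPM against at most 7.59 CPM and was found in 29 of 216 cells. *SCARB1*, the receptor for high-density lipoprotein, stood at 232 CPM against 25.1 to 51.9 CPM. The histone genes *HIST1H2AC*, at 402 CPM against 44.9 to 81.2 CPM, and *H1-2*, at 154 CPM against 9.90 to 26.5 CPM, completed the 4. Several listed endothelial genes lay in the same direction without passing both limits. The matrix protein *SPARCL1* was at 903 CPM against 83.4 to 242 CPM, and the other reticulum barcodes held 12.7 CPM. *MFSD2A*, a lysophospholipid transporter known from brain vessels, was at 29.4 CPM against 0 to 1.54 CPM, with 20.4 CPM in the other reticulum barcodes. *HOXD1* was at 29.4 CPM against 0 to 6.19 CPM, and the arterial kinase *BMX* at 63.9 CPM against 1.86 to 39.0 CPM.

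**Figure D2:**
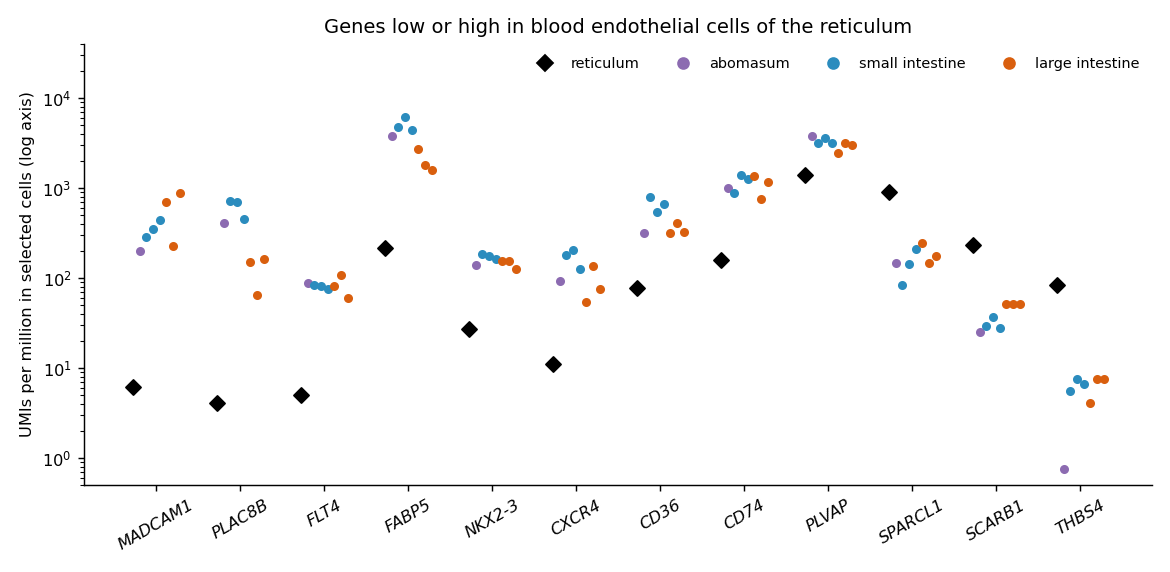
Levels (CPM, log axis) of genes low or high in the selected cells of the reticulum, with the reticulum as a black diamond and the 7 other libraries as points coloured by segment. *MADCAM1* stood at 6.09 CPM in the reticulum and 202 to 891 CPM elsewhere, and *SPARCL1* at 903 CPM against 83.4 to 242 CPM.

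Tissues other than the reticulum had few genes of their own. By the same limit of 4 times the highest other library, the abomasum had 12 genes (0.319%), the duodenum 4 (0.106%), the jejunum 1 (0.0266%), the ileum 3 (0.0797%), the cecum 1 (0.0266%), the colon 2 (0.0531%) and the rectum 2 (0.0531%). Of these, 1 gene of the ileum and 1 of the colon were above the other barcodes of their library. The ileal gene was *CCL19*, a chemokine that attracts T cells and dendritic cells, at 71.1 CPM, and all of its 161 UMIs lay in 1 of 351 cells. The colonic gene was *HIGD1B*, known from pericytes, at 71.4 CPM, with its 47 UMIs in 2 of 108 cells. The pericyte gene *RGS5* had 45 UMIs in 3 colon cells. Neither gene therefore described the endothelium of its tissue.

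Genes of vessel types were compared as the share of cells with a UMI after each cell was thinned to 1500 UMIs, with shallower cells left out. *ACKR1*, the chemokine-binding receptor of venules, was detected in 12.7% of reticulum cells, 14.7% of abomasum, 9.85% of duodenum, 8.93% of jejunum, 12.2% of ileum, 28.1% of cecum, 14.0% of colon and 36.4% of rectum cells. Cecum and rectum were highest, and the colon lay with the small intestine and stomach. *EPCAM*-positive barcodes here held at least 1 UMI of *EPCAM* and 0 UMIs of *PTPRC* and *CLDN5*. Their thinned share was 0 to 1.21% for *ACKR1*, below all 8 values. Leaving out *CLDN5* lowers endothelial genes in them by choice. Their median UMIs, 6938.5 to 12455 by library, exceeded those of the selected cells in each library. Their shares, here and below, therefore do not measure the free RNA in the selected cells. The small intestine averaged 10.3% ± 1.68 (SD, n = 3) and the large intestine 26.2% ± 11.3 (SD, n = 3). The difference of 15.8 percentage points had p = 0.1 in the exact two-sided permutation test, the smallest it can give, and an adjusted p of 0.4 over 4 genes. *PLVAP* was detected in 83.1% ± 4.56 of small intestinal and 74.9% ± 4.81 of large intestinal cells (SD, n = 3 each), a difference of -8.20 points (exact permutation p = 0.2, adjusted p = 0.4).

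Other genes of the venular side were compared with *ACKR1* in the same way. *MADCAM1* was detected in 0.490% of reticulum cells, 13.4% of abomasum, 18.0% of duodenum, 16.7% of jejunum, 22.6% of ileum, 31.7% of cecum, 16.1% of colon and 39.5% of rectum cells. *SELP*, the selectin that endothelial cells release for leukocyte rolling, was detected in 6.37%, 21.5%, 24.4%, 16.9%, 16.5%, 26.7%, 11.8% and 41.0% of cells in the same order of tissues. The rectum was highest for all 3 genes, and the reticulum was lowest for *MADCAM1* and *SELP* but not for *ACKR1*. *SELP* in duodenum and abomasum lay above the other stomach and small intestinal libraries, where *ACKR1* of the duodenum was among the lowest. In *EPCAM*-positive barcodes the shares were 0 to 1.30% for *MADCAM1* and 0 to 3.98% for *SELP*. The same cells tended to hold these genes. Without thinning, *SELP* was detected in 86.5% of 1228 *ACKR1*-positive cells and 25.4% of the rest, and *MADCAM1* in 82.6% and 13.4%. By library the *ACKR1*-positive cells held *SELP* in 48.8% to 94.6% and *MADCAM1* in 12.2% to 94.6%, with the reticulum lowest for both. Deeper cells show more genes of every kind, so these pairs are a description.

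Arterial and capillary genes had other orders. *GJA5*, the gap-junction protein of arterial endothelium, was detected after thinning in 2.15% (colon) to 8.51% (cecum) of cells. The means were 4.47% ± 1.43 in small and 5.18% ± 3.19 in large intestine (SD, n = 3 each), a difference of 0.715 points (exact permutation p = 0.8, adjusted p = 0.8). With a library left out this difference ran from -0.952 to 2.23 points. *SOX17*, an arterial transcription factor, was detected in 31.9% of reticulum cells and in 7.52% (cecum) to 21.8% (jejunum) of the others. *GJA5*-positive cells held *SOX17* in 73.2% and the arterial connexin *GJA4* in 70.8%, against 32.9% and 17.7% of the rest, and they held *ACKR1* in 4.42%, against 22.2%. *RGCC* was detected in 22.1% of reticulum, 34.0% of abomasum, 53.5% of duodenum, 49.2% of jejunum, 47.9% of ileum, 15.8% of cecum, 33.3% of colon and 24.1% of rectum cells. All 3 small intestinal values exceeded the other 5, and *EPCAM*-positive barcodes held it in 1.69% to 7.52%. *CXCR4* was detected in 18.7% of duodenum, 24.0% of jejunum and 14.6% of ileum cells against 6.34% of cecum, 11.8% of colon and 7.48% of rectum cells. In *EPCAM*-positive barcodes the share for *CXCR4* was 18.2% in the ileum, above that of the endothelial cells, 5.05% in the cecum, 6.38% in the colon and 4.41% in the rectum. Such barcodes can express *CXCR4* themselves, so their share cannot decide whether the ileal value is endothelial expression. The part of free RNA in it was not tested.

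**Figure D3:**
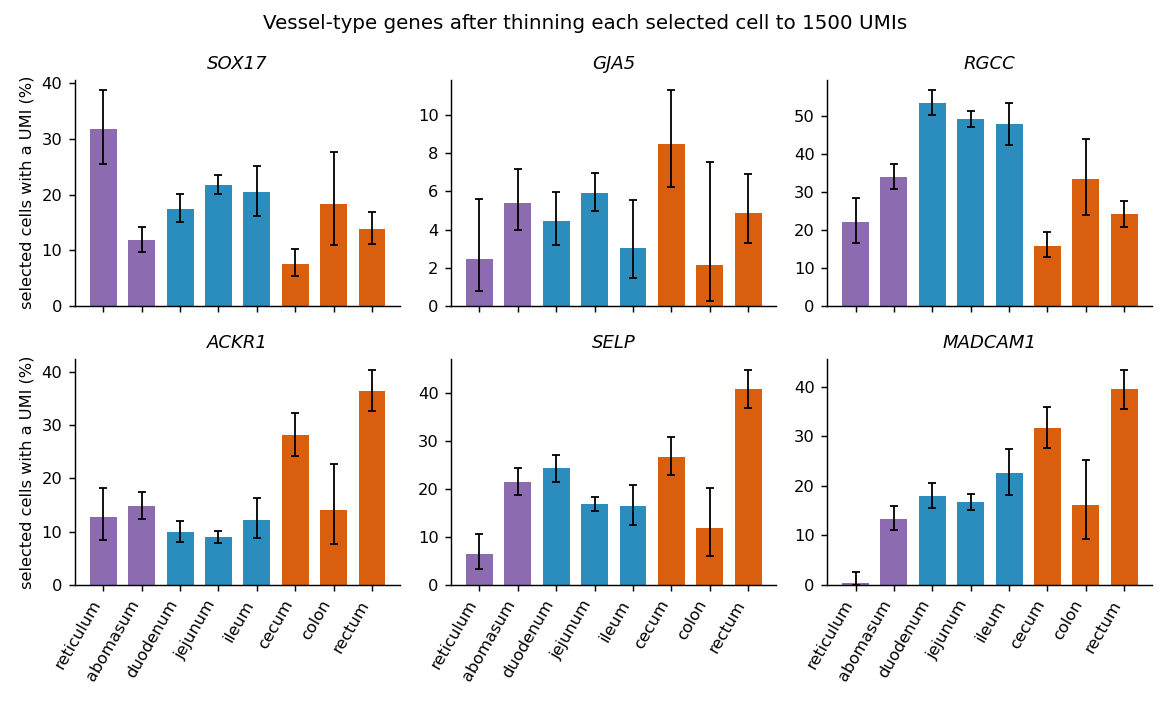
Percentage of selected cells with a UMI of a vessel-type gene after thinning to 1500 UMIs per cell, by library (stomach purple, small intestine blue, large intestine orange), with 95% exact binomial intervals. *ACKR1* and *MADCAM1* were highest in cecum (28.1% and 31.7%) and rectum (36.4% and 39.5%), and *RGCC* was highest in duodenum (53.5%).

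Few genes separated large from small intestinal endothelial cells beyond the spread between tissues. UMIs were summed over the selected cells of each library, and cecum, colon and rectum were compared with duodenum, jejunum and ileum by edgeR's quasi-likelihood test with Benjamini-Hochberg adjustment over 10347 genes. At an adjusted p under 0.05, 3 genes (0.029%) were higher and 3 (0.029%) lower in the large intestine, and 1522 genes had an unadjusted p under 0.05. Without the 716 cells of lymphatic profile, 27 genes were higher and 8 lower. Without the colon, the library of 108 cells, 97 were higher and 72 lower, and DESeq2 on the sums of all 6 libraries called 121 higher and 72 lower. Other settings lowered the counts. Without the jejunum 0 were higher and 2 lower, and without the cecum or without the rectum 1 was higher and 0 lower. With equal cell numbers 1 was higher and 1 lower. In 869 genes (8.40%) every large intestinal library was above every small intestinal one, and in 1109 (10.7%) every one was below. A sum over cells cannot separate more transcript per cell from more cells of a type.

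*COL8A2*, a chain of the short collagen VIII of basement membranes, was higher in the large intestine. It stood at 2.79 CPM in the duodenum, 3.23 in the jejunum and 1.77 in the ileum, and at 16.9 in the cecum, 21.3 in the colon and 22.0 in the rectum, with 26.4 in the reticulum and 7.19 in the abomasum. The large intestinal values lay above the small intestinal ones without overlap, and the log2 difference was 2.83 ± 0.25 (SE, adjusted p = 0.00945). The other barcodes of the 3 large intestinal libraries held 1.59 to 10.3 CPM of *COL8A2*. The endothelial level was 326%, 80.3% and 116% of that of the other barcodes in duodenum, jejunum and ileum. In cecum, colon and rectum it was 211%, 1336% and 214%. *COL8A2* was not called in the fit that set the segment difference against that in the other barcodes. The fibroblast genes had a summed level of 151 to 334 CPM in small intestinal endothelial cells, and of 1131 CPM in the cecum, 172 CPM in the colon and 1009 CPM in the rectum, so the ranges overlapped. Of the 2100 *COL3A1* UMIs in the cecum cells, 913 lay in 1 cell and 73.4% in 5 cells. In cells with 0 UMIs of *PDGFRB*, *COL1A1* and *COL3A1* the log2 difference of *COL8A2* was 3.01 (adjusted p = 0.0227). *COL8A2* kept its direction in every alternative run but lost the call (adjusted p up to 0.0997) without duodenum, jejunum, cecum or rectum, with equal cell numbers, with all 8 libraries in 1 fit, and without cells holding *LYVE1*, *CCL21* or *PDPN*.

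*PGF*, placental growth factor, a ligand of the VEGF receptor FLT1, was the other gene named by the rule. It stood at 1.67 CPM in the duodenum, 1.35 in the jejunum and 1.33 in the ileum, against 7.80 in the cecum, 7.59 in the colon and 10.3 in the rectum. These levels rested on 9, 18 and 3 UMIs in duodenum, jejunum and ileum and on 29, 5 and 47 UMIs in cecum, colon and rectum, the 5 of the colon in 3 cells. The groups did not overlap, and the log2 difference was 2.61 ± 0.30 (SE, adjusted p = 0.0413). In the other barcodes *PGF* ran the opposite way, with 7.54, 12.2 and 2.95 CPM in duodenum, jejunum and ileum and 1.85, 2.18 and 2.99 CPM in cecum, colon and rectum. When the difference between segments in endothelial cells was set against that in the other barcodes of the same libraries, *PGF* was the gene called higher, 1 of 14543 (0.00688%), with a log2 value of 4.38 (adjusted p = 0.0397). The segment difference of *PGF* lost the call when any of duodenum, jejunum, ileum, cecum or rectum was left out (adjusted p up to 0.245), with all 8 libraries in 1 fit, and without cells holding *LYVE1*, *CCL21* or *PDPN*. *PGF* was too low to be tested with equal cell numbers and without cells holding *PDGFRB*, *COL1A1* or *COL3A1*. The difference from the other barcodes lost it without any library but the ileum and with DESeq2 scaling (adjusted p = 0.0828).

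Of the remaining 4 calls, 3 lay below the level of the other barcodes in the libraries where they were high, and all were looked at after the values were seen. *PI3*, an elastase inhibitor of mucosal epithelium, was at 32.8 to 69.1 CPM in the large intestinal endothelial cells, where the other barcodes held 399 to 1264 CPM. *REG3G*, an antibacterial lectin of enterocytes, was at 47.2 to 80.0 CPM in the small intestinal cells and at 0 UMIs in the large intestinal ones, with 3221 to 5697 CPM in the small intestinal other barcodes. *REG3G* lost the call with equal cell numbers and without cecum or rectum (adjusted p up to 0.0636), and *PI3* without the jejunum (adjusted p = 0.0503). ENSBTAG00000005759, which has no symbol in the files, was likewise at 40.2 to 59.3 CPM in the small intestinal cells and 2340 to 3566 CPM around them. ENSBTAG00000005759 lost the call with equal cell numbers, without cecum or rectum, and without cells holding *LYVE1*, *CCL21* or *PDPN* (adjusted p up to 0.155). The other gene without a symbol, ENSBTAG00000038770, lay above the other barcodes in each of the 8 libraries. It stood at 75.8 CPM in the duodenum, 101 in the jejunum and 155 in the ileum, and at 14.0 in the cecum, 24.3 in the colon and 13.4 in the rectum (log2 difference -2.82 ± 0.32 SE, adjusted p = 0.0413). ENSBTAG00000038770 lost the call without jejunum, cecum or rectum (adjusted p up to 0.188), with equal cell numbers, with all 8 libraries in 1 fit, and without cells holding *LYVE1*, *CCL21* or *PDPN*.

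In the comparison with the other barcodes, 1 gene was called lower (0.00688%), the lymphocyte receptor *CD96*, with a log2 value of -4.48 (adjusted p = 0.0397). Its endothelial level was 14.3, 14.0 and 3.98 CPM in duodenum, jejunum and ileum and 1.34, 3.04 and 3.30 CPM in cecum, colon and rectum. The other barcodes ran the opposite way, from 2.29 to 5.42 CPM in small to 17.3 to 27.8 CPM in large intestine. *CD96* lost the call without any library but the ileum (adjusted p up to 0.141) and with DESeq2 scaling.

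Of 341 listed genes, 258 could be tested between large and small intestine. In the main test *PGF* was called, and no other listed gene was. That test called 0.029% of all genes higher. DESeq2, which called 121 genes higher and 72 lower in all, called further listed genes. Higher were *BMX*, *CD3E*, *DCN*, *HOXA9*, *IL1R1*, *ITGA6*, *LAMC1*, *MEOX2*, *NID2*, *NOS3*, *PTGIS* and *PTGS1*. Lower were *CD36*, *FABP5*, *FLT1*, *FOS*, *ITGA1*, *JUN*, *KLF4*, *S100B* and *TBX3*. Ranges without overlap were found for 30 listed genes above and 28 below, beside 8.40% and 10.7% of all genes, which are near the shares among the listed ones. The median log2 difference over all genes was 0.00. Among 6 tested venous genes the median was 0.74, and the smallest adjusted p was 0.0916 for *IL1R1*, the interleukin-1 receptor (log2 difference 1.88). Among 7 tested capillary genes the median was -0.49, with *CD36* nearest to the threshold (log2 difference -0.92, adjusted p = 0.0843). Among 9 arterial genes the median was -0.03.

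Lipid handling genes pointed in both directions. *FABP5* stood at 4746, 6111 and 4440 CPM in duodenum, jejunum and ileum and at 2738, 1784 and 1588 CPM in cecum, colon and rectum, without overlap (log2 difference -1.30, adjusted p = 0.0916). *CD36* stood at 790, 543 and 659 CPM against 313, 407 and 322 CPM, also without overlap. *MEOX2*, a homeobox partner of *TCF15* in the control of fatty acid uptake, stood at 8.36, 9.24 and 8.39 CPM against 31.2, 18.2 and 17.8 CPM (log2 difference 1.43, adjusted p = 0.0916). None of these passed the test, although DESeq2 called *FABP5* and *CD36* lower and *MEOX2* higher. *FABP4*, the fatty acid carrier of adipose tissue and its capillaries, lay at 0 to 5.92 CPM in the intestine.

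*APOA1*, the main protein of high-density lipoprotein, had been listed as an epithelial gene and behaved otherwise. The endothelial cells held 598 CPM in the reticulum, 1023 in the abomasum, 454 in the duodenum, 210 in the jejunum, 130 in the ileum, 1239 in the cecum, 319 in the colon and 875 in the rectum. The other barcodes held 4621 and 3269 CPM in duodenum and jejunum, where enterocytes make it, but between 4.85 and 69.7 CPM in the other 6 libraries. In those 6 libraries *APOA1* was higher in the endothelial cells than around them, and between 28.5% (ileum) and 74.3% (cecum) of endothelial cells held a UMI. In duodenum and jejunum the part of free RNA was not tested.

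Of the vascular tone and clotting genes none was called between segments in the main test. *PTGIS*, prostacyclin synthase, stood at 8.36, 7.06 and 6.62 CPM in duodenum, jejunum and ileum and at 54.1, 21.3 and 24.6 CPM in cecum, colon and rectum (log2 difference 2.28, adjusted p = 0.0575). It reached 108 CPM in the reticulum. *PTGS1*, the constitutive cyclooxygenase, stood at 6.69, 12.1 and 8.83 CPM against 76.7, 27.3 and 25.7 CPM (log2 difference 2.29, adjusted p = 0.115). *NOS3*, endothelial nitric oxide synthase, stood at 55.6, 81.3 and 64.0 CPM against 180, 92.6 and 114 CPM. The 3 genes had ranges without overlap and none passed the main test. DESeq2 called all 3 higher (adjusted p = 7.3e-06, 0.00012 and 0.029). *PTGIS* and *PTGS1* were also called higher without the filter on low counts (adjusted p = 0.0054 and 0.013). *PTGIS* was called higher after doublet removal, without cells holding *PDGFRB*, *COL1A1* or *COL3A1*, and without the colon (edgeR, adjusted p up to 0.0472). Of 15 listed genes, 0 were called, 4 lay above without overlap (8.40% of all genes) and 0 below (10.7% of all genes), and the median was 0.23.

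Of 17 basement membrane and integrin genes, 0 were called in the main test, 6 lay above without overlap (8.40% of all genes) and 1 below (10.7% of all genes). *LAMC1*, the common laminin gamma chain, stood at 129, 132 and 138 CPM in the small intestine and 193, 225 and 184 CPM in the large intestine (log2 difference 0.60, adjusted p = 0.108). *ITGA1*, the collagen-binding integrin chain, was the 1 below, at 157, 106 and 96.7 CPM against 37.1, 71.4 and 48.8 CPM (log2 difference -1.26, adjusted p = 0.108). *SPARC* and *COL4A1* were the most abundant of the list, at 1931 to 2512 CPM and 727 to 1423 CPM over the 8 libraries.

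*LYVE1*, known from lymphatic and liver sinusoidal endothelium, gave a different result with and without the cells of lymphatic profile. In all selected cells it stood at 184 to 234 CPM in the small and 190 to 342 CPM in the large intestine (log2 difference 0.42, adjusted p = 0.425). Without the cells holding *CCL21* and *MMRN1*, *LYVE1* stood at 167 CPM in the reticulum, 53.2 in the abomasum, 29.9 in the duodenum, 14.5 in the jejunum, 22.8 in the ileum, 129 in the cecum, 84.3 in the colon and 109 in the rectum. In the remaining cells the large intestine thus lay above the small intestine without overlap, with a log2 difference of 2.36 (adjusted p = 0.0287). The exclusion was chosen after the values were seen. Its limit was met by 90.5%, 89.0% and 90.8% of *PROX1*-positive cells in duodenum, jejunum and ileum. In cecum, colon and rectum it was met by 79.0%, 63.6% and 85.0%. Cells of lymphatic profile may thus have been removed less fully from the large intestine, and their part in the remaining *LYVE1* was not tested.

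Beyond *PGF*, no gene of vessel growth signaling was called between segments in the main test. That test called 0.029% of all genes higher and 0.029% lower. Of 11 tested genes of VEGF, angiopoietin and apelin signaling, 0 were called, with a median of 0.13. *FLT1* stood at 364, 309 and 238 CPM in the small and 143, 223 and 175 CPM in the large intestine (log2 difference -0.75, adjusted p = 0.172). *VEGFC*, the lymphatic growth factor, stood at 53.0, 120 and 84.8 CPM against 140, 152 and 165 CPM. *TEK*, the angiopoietin receptor, lay between 157 and 316 CPM over the 8 libraries. Of 10 Notch genes 0 were called, with a median of -0.37, and *DLL4*, the Notch ligand of tip and arterial cells, lay between 64.8 and 212 CPM. Of 11 BMP and TGFB genes 0 were called, with a median of 0.00. *ID1*, a BMP target, was abundant at 873 to 1550 CPM. Of 5 tested WNT genes 0 were called, with a median of -0.23.

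HOXA genes are homeobox factors that are expressed in order along the body axis, and their levels are given by position as a description, since none of those tested was called between large and small intestine in the main test. *HOXA9* was at 0 CPM in the reticulum, 6.20 in the abomasum, 3.72 in the duodenum, 5.78 in the jejunum, 23.9 in the ileum, 33.1 in the cecum, 42.5 in the colon and 39.8 in the rectum. The ileum lay nearer to the large intestine than to the jejunum. The log2 difference between segments was 2.06 (edgeR, adjusted p = 0.193), DESeq2 called it (adjusted p = 0.0258), and without the ileum it was 2.95 (adjusted p = 0.021). The low levels of *HOXA9* from abomasum to jejunum lay largely in the cells of lymphatic profile. Without the cells holding *CCL21* and *MMRN1*, *HOXA9* was at 0.591 CPM in the abomasum, 0.204 in the duodenum, 0.512 in the jejunum, 21.3 in the ileum, 29.5 in the cecum, 39.7 in the colon and 41.4 in the rectum (log2 difference 3.13, adjusted p = 0.271). *HOXA10* had 0 UMIs in stomach and small intestine and 1.35, 7.59 and 6.16 CPM in cecum, colon and rectum (5, 5 and 28 UMIs). It was too low for the filter of the main test. In a fit without that filter it was called with an adjusted p of 0.0135. *HOXA7* was below 2.04 CPM from reticulum to jejunum and between 6.73 and 12.2 CPM from ileum to rectum. Without the same cells, *HOXA7* was at 0.296, 0.204 and 0.0854 CPM in abomasum, duodenum and jejunum and between 7.21 and 13.2 CPM from ileum to rectum. The anterior members *HOXA3* and *HOXA4* were low, at 2.03 to 4.56 CPM and 2.03 to 7.59 CPM over the 8 libraries. *HOXA5* lay between 15.2 CPM in the reticulum and 42.7 CPM in the rectum.

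The other barcodes also held more *HOXA9* from the ileum on. They held 0.495, 2.02 and 2.35 CPM of *HOXA9* in abomasum, duodenum and jejunum, below the endothelial levels, and 26.1, 53.3, 92.6 and 69.2 CPM in ileum, cecum, colon and rectum. The endothelial level was 91.3% of theirs in the ileum and 45.9% to 62.1% in cecum, colon and rectum. *HOXA10* stood at 14.8, 20.8 and 21.2 CPM in the other barcodes of cecum, colon and rectum, and the endothelial level was 9.10%, 36.6% and 29.0% of theirs. In the same 3 libraries the endothelial level of the epithelial gene *PI3* was at most 8.22% of theirs, and that of the summed fibroblast genes was 18.1%, 24.3% and 12.7%. The part of free RNA in the HOXA levels was not tested. *HOXB4* lay between 26.4 and 33.6 CPM in all 8 libraries, whereas *HOXB9* was at 0 CPM in reticulum and colon, 0.496 to 2.21 CPM from abomasum to ileum, 6.99 CPM in the cecum and 11.9 CPM in the rectum. The other barcodes of cecum, colon and rectum held 29.0, 69.8 and 85.5 CPM of *HOXB9*, and 3 UMIs in the colon cells would be 4.56 CPM. Of 23 tested positional factors 0 were called between large and small intestine in the main test (0.029% of all genes in each direction), with a median of 0.28. *TBX3* stood at 53.0, 56.1 and 32.2 CPM in the small and 18.3, 22.8 and 26.8 CPM in the large intestine (log2 difference -1.05, adjusted p = 0.136).

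**Figure D4:**
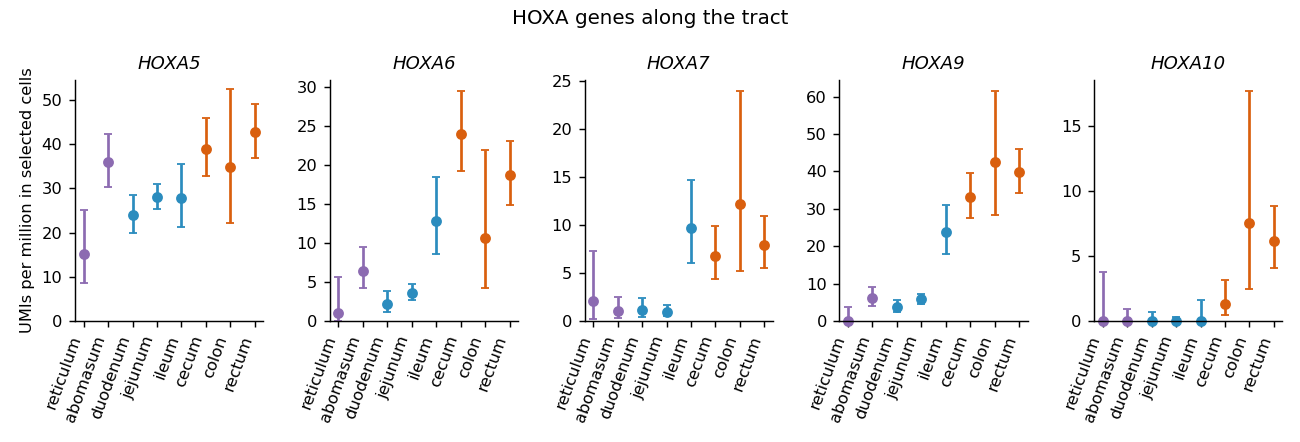
Levels of HOXA genes in the selected cells (CPM) along the gut from reticulum to rectum, with 95% exact Poisson intervals. *HOXA9* stood at 5.78 CPM in the jejunum, 23.9 CPM in the ileum and 33.1 to 42.5 CPM beyond it, and *HOXA10* was at 0 UMIs before the cecum.

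Interferon-induced genes were highest in abomasum, cecum and rectum, and none of those listed was called between large and small intestine in the main test. *IFI6* stood at 71.0 CPM in the reticulum, 1665 in the abomasum, 67.6 in the duodenum, 137 in the jejunum, 379 in the ileum, 1431 in the cecum, 135 in the colon and 1674 in the rectum. *IFI27* was at 516, 2795, 408, 494, 912, 2741, 431 and 3453 CPM in the same order. Abomasum, cecum and rectum were therefore highest for both genes, and the segments overlapped. *MX1*, an antiviral GTPase, was also highest in rectum, abomasum and cecum (284, 228 and 226 CPM) and lowest in the duodenum (51.5 CPM). *ISG15* was at 653, 502 and 384 CPM in these 3 libraries, with 369 CPM in the ileum. The list had 0 of 13 genes called between large and small intestine (0.029% of all genes in each direction) and a median of 1.06. No listed gene was without overlap (8.40% of all genes above and 10.7% below). An unadjusted p under 0.05 was found for 5 of the 13, and for 1522 of all 10347 genes. Without the colon, *IFI27* was called higher in the large intestine (edgeR, log2 difference 2.38, adjusted p = 0.0362). The other barcodes had *IFI6* highest in the same 3 libraries, at 412 CPM in abomasum, 950 in cecum and 1390 in rectum, against 0.892 to 152 CPM in the rest. For *ISG15* the other barcodes held 71.4 CPM in the abomasum, below the 226 CPM of the jejunum and the 245 CPM of the ileum, and 275 and 425 CPM in cecum and rectum. Calf and tissue cannot be told apart.

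**Figure D5:**
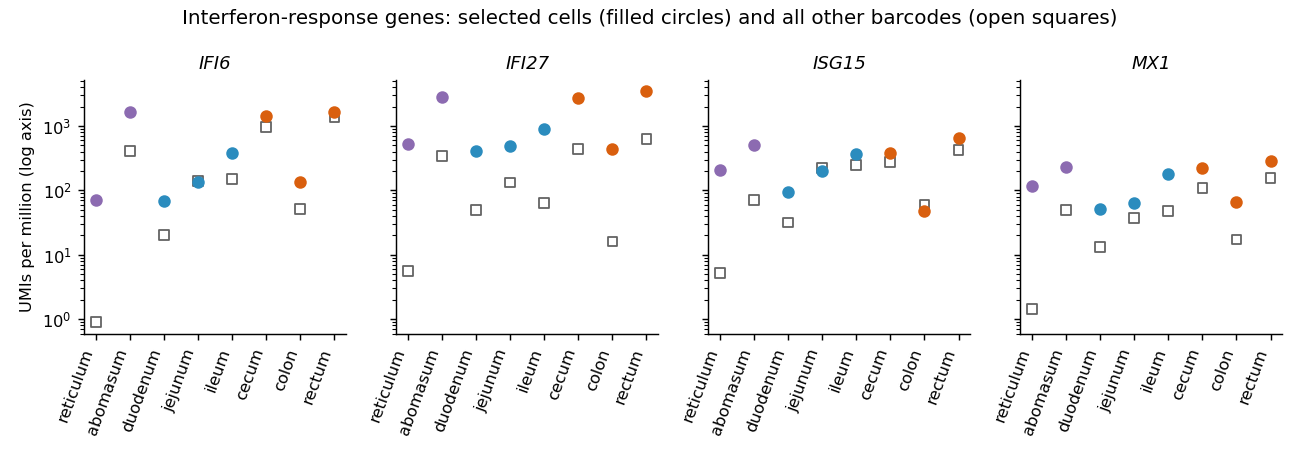
Levels of interferon-induced genes (CPM, log axis) in the selected cells (filled circles) and in the other kept barcodes (open squares) of the 8 libraries. *IFI6* was highest in abomasum, cecum and rectum in both (1665, 1431 and 1674 CPM in the selected cells).

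The early response genes *FOS* and *JUN* were highest in reticulum, jejunum and ileum. *FOS* stood at 1776 CPM in the reticulum, 290 in the abomasum, 437 in the duodenum, 799 in the jejunum, 1072 in the ileum, 182 in the cecum, 351 in the colon and 382 in the rectum. *JUN* stood at 3486, 1424, 2231, 3940, 3680, 1168, 1282 and 1972 CPM in the same order. Both were higher in every small than in every large intestinal library (log2 differences -1.33 and -1.14), but with adjusted p-values of 0.188 and 0.149 neither was called in the main test. DESeq2 called both lower in the large intestine (adjusted p = 0.00696 and 0.00235), and edgeR without the filter on low counts called *JUN* (adjusted p = 0.0351). From duodenum to rectum, the early response and stress list summed to 6594.5, 17545, 9041, 19547, 10517 and 11072 CPM in the other barcodes. In the selected cells it summed to 11610, 21259, 18443, 8222, 7237 and 13123 CPM. The part of free RNA was not tested. Of 13 genes 0 were called in the main test (0.029% of all genes in each direction), with a median of -0.82.

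*MKI67*, a proliferation marker, was detected after thinning in 1.77% ± 1.90 of small and 2.46% ± 1.61 of large intestinal endothelial cells (SD, n = 3 each), a difference of 0.687 points (exact permutation p = 0.5, adjusted p = 0.667). The direction was reversed in 4 alternative runs, and with a library left out the difference ran from -0.233 to 1.78 points. Without thinning, 9.12% of ileum, 5.56% of colon and 1.96% to 4.07% of the other libraries' endothelial cells held a UMI. *MKI67* was highest in colon (60.7 CPM) and ileum (35.3 CPM), where the other barcodes held 138 and 292 CPM, and between 5.95 and 16.2 CPM in the other 6 libraries. Of the 40 colon UMIs, 97.5% lay in 5 cells and 21 in 1 cell, and without the cells holding *CCL21* and *MMRN1* the colon level of *MKI67* was 31.4 CPM. *EPCAM*-positive barcodes held it in 0.432% to 15.3% after thinning. In the ileum these held it in 13.9% against 3.96% of the endothelial cells, and in the colon in 5.42% against 4.30%. Such barcodes can express *MKI67* themselves, so this comparison cannot decide whether the endothelial cells were dividing. The part of free RNA in the endothelial shares was not tested. Of 16 division genes 0 were called (0.029% of all genes in each direction), with a median of 0.19.

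The remaining lists had 0 genes called between large and small intestine in the main test, which called 0.029% of all genes higher and 0.029% lower. The medians were -0.17 for endothelial identity (15 tested), -0.09 for endothelial transcription factors (20 tested), 0.07 for leukocyte adhesion (14 tested), 0.22 for lipid handling (10 tested), -0.09 for transport and caveolae (14 tested), 0.04 for junctions (13 tested) and -0.27 for antigen presentation (9 tested). In the tip cell list *PGF* was the 1 call of 5, beside 0.029% of all genes called higher, and the median was -0.15. Among lists of other cell types, the fibroblast genes had the largest median, 1.87, with 0 of 6 called. *COL1A1* stood at 14.9, 27.7 and 16.8 CPM in the small and 158, 18.2 and 105 CPM in the large intestinal endothelial cells, where the other barcodes held up to 1123 CPM. The medians were 0.02 for lymphatic genes, 0.23 for mural genes, -0.47 for leukocyte genes and 1.51 for 3 tested epithelial genes, with 0 called in each. For the plasma cell gene *JCHAIN*, 1052 of 1166 cecal UMIs lay in 1 cell and 512 of 534 rectal UMIs in another. The glial list had 1 tested gene, *S100B* (log2 difference -0.85), which lay above the other barcodes in each of the 8 libraries at 74.0 to 195 CPM. The erythroid list had 1 tested gene, at 0.28.

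Intestine and stomach were compared over all 8 libraries and differed in few genes by the same test. Of 10972 genes, 1 (0.00911%) was called higher and 1 (0.00911%) lower in the intestine, and 778 had an unadjusted p under 0.05. The lower gene was the mitochondrial *ND6* (log2 difference -1.37, adjusted p = 0.0419), and the higher one has no symbol in the files (ENSBTAG00000049114) and lost the call with equal cell numbers (adjusted p = 0.283). *ND6* lost the call without any 1 of the 6 intestinal libraries (adjusted p up to 0.178), under the 40% mitochondrial limit, with at least 2 UMIs of each selecting gene, and without cells holding *LYVE1*, *CCL21* or *PDPN*. Neither met the rule for named genes. None of 278 listed genes was called. Without the abomasum, 44 genes were called higher and 83 lower in the intestine, and without the reticulum 25 were called lower. Each of these fits has 1 stomach library, which is assumed to vary like the intestinal libraries that alone set the spread.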

How the data were processed

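The 8 NB libraries were deposited as gene-by-barcode matrices of raw UMI counts, which the authors made with Cell Ranger 3.1.0 on the ARS-UCD1.2 build. No normalization had been applied.

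Kept barcodes had 500 to 4000 genes and under 50000 UMIs. No cell clustering was done, and doublets were removed in an alternative only (Scrublet). UMIs were summed over the selected cells of each library and tested with edgeR 4.0.16 in R 4.3.3 (TMM scaling, filterByExpr, glmQLFit and glmQLFTest, Benjamini-Hochberg over all genes fitted, threshold 0.05), which treats the tissues of a segment as replicates. A second fit set the segment difference in the selected cells against that in the other kept barcodes, with the library as a block. Shares of cells were compared over libraries by exact permutation after each cell was thinned to 1500 UMIs. DESeq2 1.42.0 served as an alternative. Python 3.11.15, NumPy 2.4.6, SciPy 1.17.1 and scanpy 1.11.5 were used for the rest. The SE of an edgeR log2 difference was calculated back from the test, as the size of the difference divided by the square root of the F statistic. Genes of the selection rule were described and not tested.

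Named genes were those of 28 lists (341 genes), the first 10 called between segments and the first 6 between intestine and stomach in each direction by fold change, with a symbol, ranges that did not overlap and levels above the other barcodes in the higher libraries, and up to 3 standing out in a tissue. The selection and the lists were chosen with earlier results of these data known. On simulated counts for large against small intestine (10419 genes), edgeR found 39 of 100 genes changed 2-fold, 98 of 100 changed 4-fold, and called 3 unchanged ones. For intestine against stomach (10867 genes) it found 42 and 98 of 100 and called 12 unchanged ones. The simulation gave all libraries the same gene proportions and all genes the same dispersion, and it changed only well-counted genes. Its shares therefore do not give the power in the real libraries, whose tissues differ. The alternatives were other scaling, filters, cell limits, doublet removal, equal cell numbers, all 8 libraries in 1 fit, each library left out, and, added after seeing the data, leaving out cells with at least 3 UMIs of *CCL21* and 1 of *MMRN1*. The 7 libraries of the series other than these 8 were used in no test. Values of some are set beside those of the 8 in the closing observations.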

Additional observations from a re-analysis of the deposited data

Results flagged for a closer look

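Cells that met the same conditions were also present in libraries outside the comparisons. The NB omasum held 245, the NB liver 100, the AD jejunum 37, the AD colon 13, the AD cecum 10, the NB salivary gland 8 and the AD duodenum 2. No test was run on these numbers.

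The segment difference of *PGF* in endothelial cells differed from that in the other barcodes of the same libraries by a log2 value of 4.38 (edgeR interaction term, adjusted p = 0.0397), with 3 UMIs in the ileum and 5 in the colon among the endothelial cells. The segment difference of *CD96* differed by a log2 value of -4.48 in the same fit (adjusted p = 0.0397) and lost the call without any library but the ileum (adjusted p up to 0.141). With effective library sizes by the DESeq2 method in place of TMM, 0 genes passed this test in either direction.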

How the results depend on the processing

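No paired analysis was possible because the labels give no replicate numbers that tie libraries of different segments. The library block in the comparison with other barcodes ties 2 cell groups of the same library. Between large and small intestine, 3 genes were higher and 3 lower. The higher count was 12 with at least 2 UMIs of each selecting gene, 14 without cells holding *PDGFRB*, *COL1A1* or *COL3A1*, 37 after doublet removal, 27 without cells holding *CCL21* and *MMRN1*, 118 without the filter on low counts, 121 with DESeq2, 1 with equal cell numbers and 1 with all 8 libraries in 1 fit. The lower counts were 7, 19, 8, 73, 72 and 1 for the stromal limit, doublet removal, the *CCL21* limit, no filter, DESeq2 and equal numbers, and 1 without cells holding *LYVE1*, *CCL21* or *PDPN*. Leaving out 1 library gave 0 to 97 higher and 0 to 72 lower. Between intestine and stomach, the higher count was 2, 2, 4 and 48 with the stromal limit, the *CCL21* limit, no filter and DESeq2, and 1 to 44 with a library left out. The lower count was 0 under the mitochondrial limit, the 2-UMI limit and the *LYVE1* limit, 4 with equal numbers, 21 without the filter, 23 with DESeq2 and 0 to 83 with a library left out. In the comparison with other barcodes, no filter gave 6 higher and 10 lower, DESeq2 scaling 0 and 0, and leaving out a library 0 to 9 and 0 to 12. The *MKI67* difference turned to -0.196 points without thinning, -0.765 at 3000 UMIs, -0.0179 without cells holding *LYVE1*, *CCL21* or *PDPN*, and -0.233 to 1.78 with a library left out. That of *GJA5* ran from -0.952 (without the cecum) to 2.23, of *ACKR1* from 10.7 to 21.9, of *PLVAP* from -11.0 to -6.35 and of the selected share from -8.49 to -1.67. At 8 times the highest other library, 2 genes stood out in the duodenum and 0 in jejunum, cecum, colon and rectum. Without cells holding *CCL21* and *MMRN1*, 0, 2 and 4 stood out in jejunum, cecum and rectum. The cause of these shifts was not tested. The 108 colon cells limit the precision of the large intestine.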

Other observations

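The omasum is a second forestomach compartment with a keratinized epithelium, and its 245 endothelial cells can be set beside those of the reticulum. *MADCAM1* had 0 UMIs there among 1164220, which allows up to 2.58 CPM (3 counts), and the reticulum cells were at 6.09 CPM. *NKX2-3* stood at 8.59 CPM in the omasum and 27.4 CPM in the reticulum, against at least 128 CPM in the glandular stomach and intestine. *FABP5* stood at 228 CPM, *CD36* at 55.8 CPM and *PLAC8B* at 0 CPM, each below the lowest value of abomasum and intestine. *CD74* was at 378 CPM, between the reticulum (160 CPM) and the colon (750 CPM). *CXCR4* followed the reticulum less, at 47.2 CPM (35.6 to 61.5) in the omasum against 11.2 CPM in the reticulum. Its interval covered the 54.1 CPM of the cecum.

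Genes high in the reticulum were in part also high in the omasum. *SPARCL1* stood at 844 CPM and *SCARB1* at 419 CPM in the omasum, close to or above the reticulum values of 903 and 232 CPM. *THBS4* stood at 3.44 CPM, far below the 84.2 CPM of the reticulum, while the 37 AD jejunum cells held 56.4 CPM. *PLVAP* was at 1001 CPM and *CDH5* at 323 CPM in the omasum. The omasum cells also held 1172.5 CPM of *KRT5*, against 569 CPM in the reticulum cells. Levels in the other omasum barcodes are not given, and the part of free RNA in the omasum values was not tested. The omasum was looked at after the reticulum values were seen, each tissue has 1 library, and no test was run.

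The cells of the NB liver that met the conditions held 879 CPM of *STAB2*, a scavenger receptor of liver sinusoidal endothelium, with *PLVAP* at 169 CPM and *MADCAM1* at 8.91 CPM. The 37 AD jejunum cells held 6928 CPM of *PLVAP* and 436 CPM of *MADCAM1*. Their NB counterparts were at 3592 and 350 CPM, and age, animal and library cannot be told apart.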
